A study of Rattus norvegicus with 32 samples.

Results

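The comparison described here is Ang II+PD123319 against Ang II after 3 h in C6 cells, an established rat glioma line of glial origin, and it rests on 8 of the 32 arrays of the series. Its members were taken from the sample titles as the 4 Ang II arrays and the 4 Ang II+PD123319 arrays at 3 h, replicates 1 to 4 of each. Cells of the Ang II group received 100 nM angiotensin II, and cells of the Ang II+PD123319 group received 10 µM PD123319 for 30 min before the same dose of the peptide. Control arrays came from cells without the peptide, and Ang II+Los arrays came from cells given 10 µM Losartan, a blocker of the AT1 receptor, in the same way. All groups are cultures of this 1 line. Each slide carried 1 array of every group, so that replicate 1 of Ang II and replicate 1 of Ang II+PD123319 were read on the same slide. The Ang II array always held the second place on the slide and the Ang II+PD123319 array always the fourth, so place and treatment cannot be told apart. Nothing in the labels says that the replicates were separate cultures, and the p-values then measure the spread between these arrays only.

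Angiotensin II, the effector peptide of the renin-angiotensin system, acts on a pair of G protein-coupled receptors. The AT1 receptor, encoded by Agtr1a and Agtr1b in the rat, couples to Gq and raises growth factor signalling, in part by shedding of the ErbB ligand Hbegf and through the Ras and ERK cascade. The AT2 receptor, encoded by Agtr2, is generally described as opposing AT1 and is coupled to Gi and to protein phosphatases. PD123319 is a non-peptide AT2 antagonist, and the comparison asks which transcripts change when AT2 is blocked while angiotensin II is present.

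The arrays gave no measurable level of the receptor that PD123319 blocks. Agtr2 is read by 1 probe of 60 bases, which the file headers place at chrUn:50647969-50648028 on the minus strand of rn4, in sequence not assigned to a chromosome. It is shown because the target of the compound is read through it, and its last codon, in capitals, is a stop that closes an open frame of 20 codons.

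Agtr2 probe: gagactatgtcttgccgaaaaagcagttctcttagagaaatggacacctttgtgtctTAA

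The Agtr2 signal after background subtraction ranged from -2.24 to -1.14 on the 4 Ang II arrays and from -1.94 to -0.21 on the 4 Ang II+PD123319 arrays, in scanner units in which the median spot of these 8 arrays lay between 34.5 and 105. The spot was significantly above background on 0 of the 16 arrays at 3 h and on 0 of the 16 arrays at 6 h. Agtr1a, read by 10 spots of 1 probe, ranged from -1.34 to -0.32 with Ang II and from -1.52 to 0.0154 with Ang II+PD123319, and at 3 h no array had 5 or more of its spots significant. Agtr1b was not significant on any of the 16 arrays at 3 h, with -1.02 to 3.3 under Ang II and -1.5 to 2.43 under Ang II+PD123319. At 6 h, where the scanner software estimated its background in another way, Agtr1b was significant on 5 of 16 arrays and never well above background. Agtr1a had at least 1 significant spot on 12 of the 16 arrays at 6 h. On the Ang II+PD123319 array of replicate 1 at 6 h all 10 of its spots were significant, 2 of them well above background, with a signal of 6.52. None of the receptor genes passed the filter on signal, so none entered the test. The study also measured both receptor types by quantitative PCR. It reported a slight rise of AT1 and a slight fall of AT2 with Ang II at 3 h. A probe without signal therefore does not show that the receptor was absent.

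Between 57.8% and 64.7% of the spots were well above background on the 8 arrays, and no spot was saturated. The glial markers Vim, Nes, S100b, Gja1, Cd44 and Sox9 were well above background on all 8 arrays, while Gfap, Slc1a3, Slc1a2 and Fabp7, which mature astrocytes or radial glia express, were so on none. Of 10 oligodendrocyte lineage markers, 6 were well above background on all 8 arrays, among them Sox10, Pdgfra and Cspg4. Of the markers of other cells, 1 of 8 neuronal, 5 of 8 microglial and 1 of 6 endothelial genes on the array reached this on all 8 arrays. The microglial genes Ptprc and C1qa did not reach it on any array, and the 5 that did had mean log2 signals from 4.12 to 7.19 with Ang II. No marker was past the limits used below. The largest difference among them was that of Cx3cr1, a microglial chemokine receptor, with means of 5.74 with Ang II and 6.26 with Ang II+PD123319, and a part of other cells in the results was not tested.

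Of 13630 genes tested at 3 h, 275 were higher with PD123319, which is 2.02% of the genes, and 85 were lower, which is 0.624%. Together these are 360 genes, or 2.64%. The split depended on the scaling, with 430 higher and 29 lower genes when arrays were scaled by the 75th percentile and 159 and 16 when the background was modelled by normexp. The limits were an unadjusted p under 0.05 in limma, fitted on the 16 arrays of 3 h with the slide as a block, and a fold change above 1.2 or below 0.8. These fold limits are not symmetric on the log2 scale, and the lower limit asks for the larger change. With the lower limit at the inverse of 1.2, 275 genes were higher and 112 lower. No gene passed the Benjamini-Hochberg adjustment over all genes, and the lowest adjusted p was 1.00. At an unadjusted p under 0.05 there were 407 genes (2.99%), fewer than the 681.5 that make up 5% of the genes tested. This count depended on the fit. It was 855 on the 8 arrays alone, 758 without the Ang II+Los arrays, 744 without replicate 1 and 1041 with array weights. All of these are above 681.5. It was 62 without the slide block, 41 without replicate 4 and 365 to 468 under the other scalings, all below 681.5. The median SE of the log2 fold change was 0.159 in the 16-array fit and 0.1108 on the 8 arrays alone. No gene passed the adjustment in any of these fits. The genes below are therefore described by their values on the 4 slides, and none of them is established as changed by this test. The changes were small, with a median fold change of 1.33 for the higher genes and 0.753 for the lower ones.

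The lower gene with the largest difference among those with a symbol, a clear signal on all 8 arrays and one sign on the 4 slides was Ctgf, the matrix-associated protein also called Ccn2 and a target of the YAP and TEAD factors. Its normalised log2 signal was 12.78, 12.11, 11.24 and 10.89 with Ang II on slides 1 to 4 and 12.44, 10.97, 10.48 and 10.49 with Ang II+PD123319. It was lower with PD123319 on every slide, by 0.34, 1.15, 0.75 and 0.40, although the ranges of the groups overlapped because the slides differed in level. The fit gave a log2 fold change of -0.66 ± 0.17 (SE), a fold of 0.633, with an unadjusted p of 0.0020 and an adjusted p of 1.00 in limma. The Control arrays had a mean of 11.77 ± 0.58 (SD, n = 4). The Ang II mean was 11.75 ± 0.85 and the Ang II+PD123319 mean 11.09 ± 0.92.

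The 250 bases before the annotated start of Ctgf, at chr1:22624615-22624864 on the minus strand of GRCr8 in RefSeq, are shown because they hold the letters of the TEAD motif 3 times. The capitals mark GGAATG, searched on both strands, which starts 166, 101 and 92 bases before the start, and TATAAA, which starts 31 bases before it. No motif overlaps another.

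Ctgf (Ccn2) promoter: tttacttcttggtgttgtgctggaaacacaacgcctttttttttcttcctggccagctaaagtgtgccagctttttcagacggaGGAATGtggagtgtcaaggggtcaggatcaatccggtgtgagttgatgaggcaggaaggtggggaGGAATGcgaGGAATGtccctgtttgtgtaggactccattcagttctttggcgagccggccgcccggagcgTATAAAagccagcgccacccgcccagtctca

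Of 27457 RefSeq promoters of this length, 11.8% hold GGAATG at least at 1 place and 0.0911% hold it at 3 places or more. A promoter was matched to 59 of the 85 lower genes, to 103 of the 275 higher genes and to 7912 of the genes tested. GGAATG was present in 8 of the 59 lower genes (13.6%), in 14 of the 103 higher genes (13.6%) and in 9.86% of the genes tested. The AP-1 letters TGANTCA were present in 4 lower genes (6.78%), 2 higher genes (1.94%) and 4.16% of the genes tested, and the CRE letters TGACGTCA in 3 (5.08%), 1 (0.971%) and 3.17%. These matches are a description of the letters only.

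Hbegf, the ErbB ligand shed during AT1 signalling, came next after Ctgf in this ranking. Its log2 signal was 8.54, 7.89, 6.24 and 6.41 with Ang II on slides 1 to 4 and 8.44, 6.79, 5.74 and 5.74 with Ang II+PD123319. The difference had the same sign on the 4 slides and ranged from -0.10 on slide 1 to -1.09 on slide 2, and the fit gave -0.59 ± 0.16 (SE) with an unadjusted p of 0.0028. Tnfrsf12a, the TWEAK receptor, had 12.75, 12.61, 12.60 and 12.68 with Ang II and 12.53, 12.05, 11.87 and 12.24 with Ang II+PD123319. All 4 Ang II arrays lay above all 4 Ang II+PD123319 arrays, which was true, in either direction, of 0.368% of the genes. Its log2 fold change was -0.49 ± 0.13 (SE). Csrnp1, an immediate early nuclear protein, was the other lower gene among those named whose groups did not overlap, with 6.89, 7.10, 6.93 and 7.34 against 6.52, 6.54, 6.54 and 6.56. Its Control mean, 6.57 ± 0.50 (SD, n = 4), was close to the Ang II+PD123319 mean of 6.54 ± 0.02 (SD, n = 4).

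**Figure D1:**
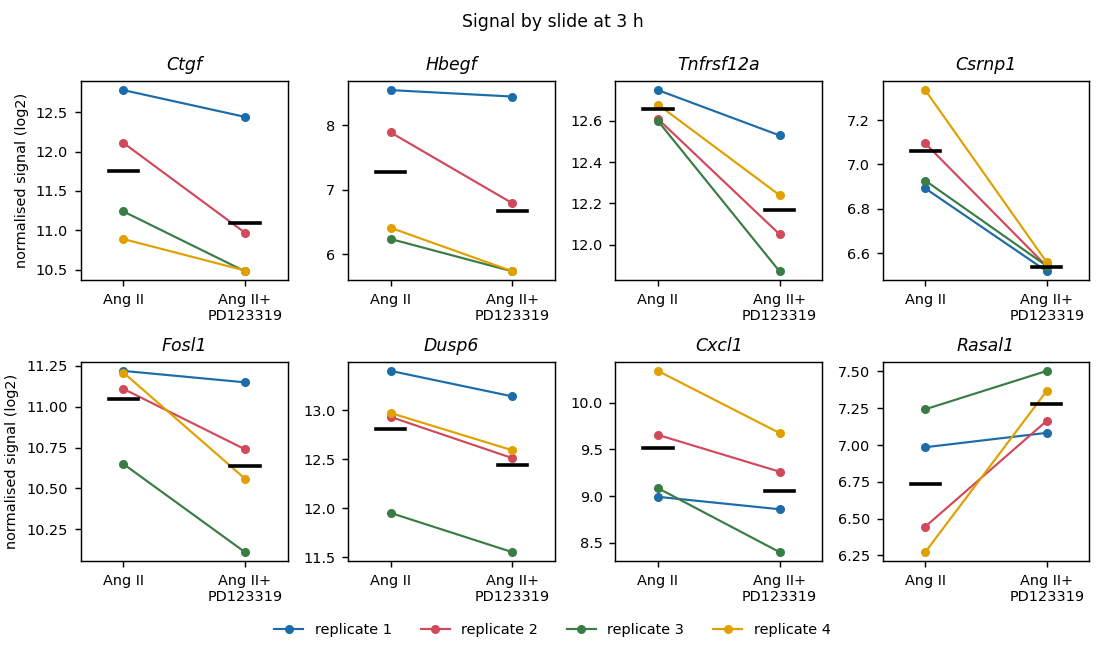
Normalised log2 signal of 8 genes in Ang II and Ang II+PD123319 arrays at 3 h, with a line for each slide (replicates 1 to 4) and a black bar at each group mean. The lines of Ctgf, Hbegf, Tnfrsf12a, Csrnp1, Fosl1, Dusp6 and Cxcl1 all fall and those of Rasal1 all rise, while the slides differ in level; the Ang II mean of Ctgf is 11.75 and the Ang II+PD123319 mean is 11.09.

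The other lower genes of this rank were Ppp3r1, the regulatory subunit of calcineurin, at -0.53 ± 0.24, Eif5b, a factor that joins ribosomal subunits, at -0.49 ± 0.16, and Slc4a7, a sodium bicarbonate cotransporter, at -0.47 ± 0.20. They were followed by the chemokine Cxcl1 at -0.47 ± 0.18, Cd2ap, an adaptor between receptors and actin, at -0.46 ± 0.20, and the histone chaperone Nasp at -0.44 ± 0.15. The last were Dnd1, an RNA-binding protein of germ cells, at -0.42 ± 0.14 and Ctps, which makes CTP, at -0.41 ± 0.16 (log2 fold change ± SE for each). These 12 genes were lower on all 4 slides by the rule that chose them. Cd2ap stood on slide 2, where it differed by -1.43, with -0.06, -0.15 and -0.22 on the others. Slc4a7 differed by -0.06 on slide 3 and Ctps by -0.02 on slide 1.

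The 12 higher genes chosen in the same way differ in what they are known to do. They were Fam132b (0.60 ± 0.17), which is erythroferrone, Gapdh-ps1 (0.56 ± 0.23), Bpil1 (0.55 ± 0.20), the Ras GTPase activator Rasal1 (0.54 ± 0.15), the methyltransferase Bhmt2 (0.54 ± 0.23) and the orphan receptor Gpr152 (0.54 ± 0.18). The others were cardiac actin Actc1 (0.53 ± 0.20), the olfactory receptor Olr132 (0.52 ± 0.11), the cytochrome P450 gene Cyp4f6 (0.52 ± 0.20), the PI3K regulatory subunit Pik3r5 (0.50 ± 0.17), the growth factor midkine, Mdk (0.50 ± 0.18), and the pluripotency factor Pou5f1 (0.47 ± 0.17), all as log2 fold change ± SE. Gapdh-ps1 is named as a pseudogene of Gapdh, and its probe may share signal with the parent gene. Rasal1 had 6.99, 6.45, 7.24 and 6.27 with Ang II and 7.08, 7.17, 7.50 and 7.37 with Ang II+PD123319, so that its difference was 0.10 and 0.26 on slides 1 and 3 and 0.72 and 1.10 on slides 2 and 4. Olr132 was the most even, with differences of 0.43, 0.47, 0.45 and 0.74.

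**Figure D2:**
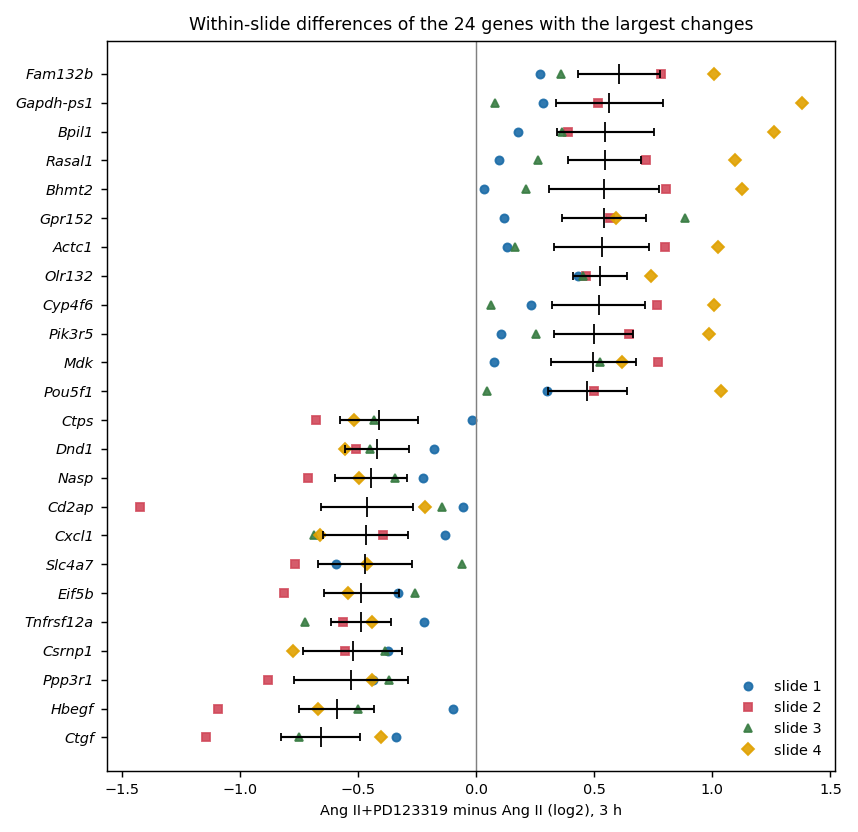
Ang II+PD123319 minus Ang II on the log2 scale at 3 h for the 12 highest and 12 lowest genes of the naming rule, with a symbol for each slide and a black mark with bars for the fitted log2 fold change ± SE. Among the higher genes slide 4 is the largest at 10 of 12, as for Rasal1 at 1.10, and among the lower genes slide 2 is the largest at 8 of 12, as for Ctgf at -1.15.

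The slides did not contribute alike. Over the genes, the difference had an SD of 0.249, 0.454, 0.193 and 0.376 on slides 1 to 4. Across 13597 genes, which are not independent replicates, the differences of slides 2 and 4 correlated at 0.38 and those of slides 1 and 2 at -0.4, and the other pairs of slides lay between -0.034 and 0.15. The 275 higher genes had median differences of 0.13, 0.56, 0.16 and 0.75, and the 85 lower genes had -0.27, -0.63, -0.31 and -0.54. Without replicate 4 the fit gave 17 higher and 23 lower genes, 40 in all, of which 36 were among the 360. Without replicate 2 it gave 251, of which 122 were among the 360. Slides 1 and 2 were scanned in the first session and slides 3 and 4 in the second, and the first session alone gave 34 genes and the second alone 580. Ctgf was -0.74 ± 0.25 (SE) within the first session and -0.58 ± 0.12 within the second, and both were past the limits. Tnfrsf12a was -0.39 ± 0.21 and -0.58 ± 0.18, the second of which was past the limits. Without the slide block 62 genes were past the limits, 52 higher and 10 lower.

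The genes past the limits were mostly dim. The median of their mean log2 signal was 6.38 for the higher genes and 5.29 for the lower ones, beside 8.26 for all genes tested. The 4544 dimmest genes held 171 of the higher and 66 of the lower genes, and the 4543 brightest held 24 and 8. Ctgf, Tnfrsf12a, Fosl1 and Dusp6, with mean signals of 11.4, 12.4, 10.8 and 12.6, were among these 8 bright lower genes. A gene symbol was available for 44% of the higher genes, for 78.8% of the lower genes and for 64.1% of all genes tested.

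**Figure D3:**
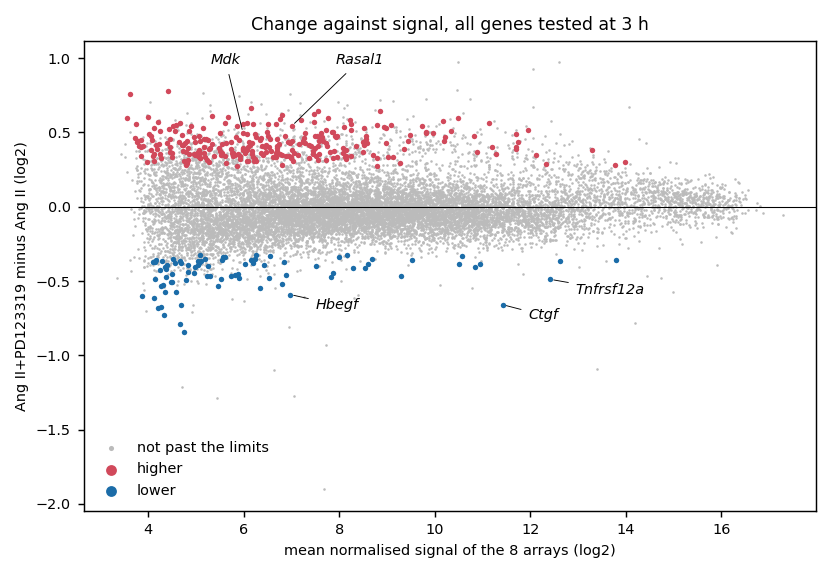
Log2 fold change of Ang II+PD123319 against Ang II (vertical axis) by mean normalised log2 signal of the 8 arrays (horizontal axis) for the 13630 genes tested at 3 h, each point a gene. Red points are the 275 higher and blue points the 85 lower genes past the limits; most lie at signals below 8, while Ctgf and Tnfrsf12a lie above 11.

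The base composition of the probes moved with the direction of the change. The median GC content of the probes was 53.3% for the higher genes, 40.8% for the lower genes and 45% for all genes tested. Among the 4543 genes with the richest probes, from 45% to 90% GC, 189 genes were higher and 13 lower, and among the 4544 with the poorest, from 16.7% to 41.7% GC, 28 were higher and 44 lower. The median difference of all genes rose from -0.17 in the poorest to 0.17 in the richest set on slide 2, and from -0.12 to 0.03 on slide 4. On slides 1 and 3 these medians stayed between -0.03 and 0.02. With the trend over probe GC content removed from each array, an alternative chosen after the data were seen, 178 genes were higher and 82 lower. Of these, 161 of the higher and 62 of the lower genes were among those of the fit without the correction. Ctgf then had a log2 fold change of -0.65, Hbegf -0.60, Tnfrsf12a -0.56 and Dusp6 -0.37. The probes of these genes have 43.3%, 45%, 53.3% and 45% GC. Other named genes lie further from the median, with 23.3% for Csrnp1, 35% for Fosl1 and Cxcl1 and 55% for Rasal1. Of the 42 named genes past the limits, 37 stayed past them after the correction. The part of probe composition in the remaining differences was not tested.

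**Figure D4:**
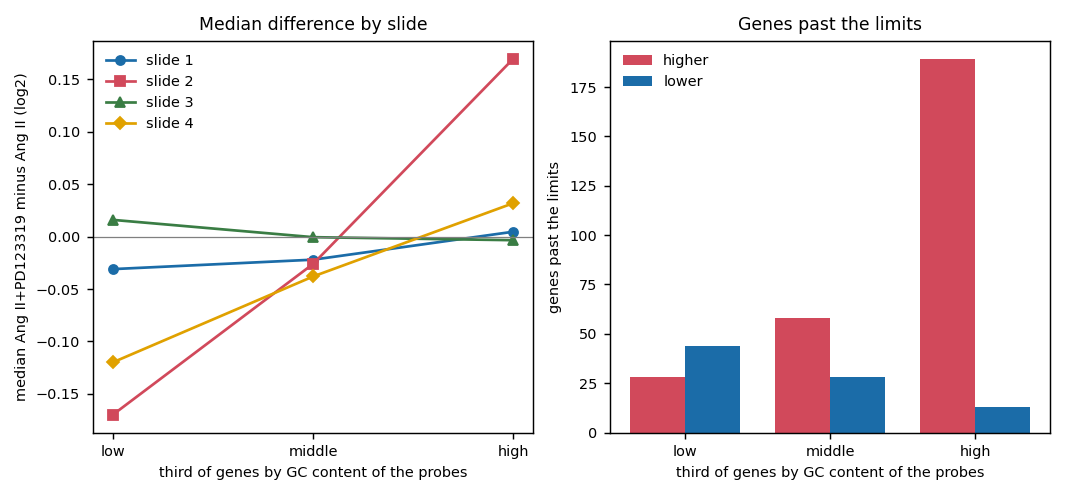
Left, median Ang II+PD123319 minus Ang II difference (log2) on each of the 4 slides for genes with low, middle and high probe GC content (sets of equal size); right, number of higher and lower genes past the limits in each set. The line of slide 2 climbs from -0.17 to 0.17, slides 1 and 3 stay near 0, and the high set holds 189 of the 275 higher genes.

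Among the genes that feed back on ERK, 13 of the 16 tested had a log2 fold change below 0, with a median of -0.16, beside -0.02 over all genes tested, of which 7539 of 13630 were below 0. Of the 16, 2 were past the limits and lower and none higher, beside 0.624% of all genes past them and lower. Dusp6, the phosphatase that inactivates ERK and one of the genes the study listed as a network hub on these samples, differed by -0.26, -0.42, -0.40 and -0.38 on the 4 slides. Its log2 signal was 13.40, 12.93, 11.95 and 12.97 with Ang II and 13.14, 12.51, 11.55 and 12.59 with Ang II+PD123319, and the fit gave -0.37 ± 0.14 (SE). Etv4, an ETS factor downstream of ERK, gave -0.47 ± 0.18 (SE) but was 0.10 higher on slide 1. Errfi1, an inhibitor of the EGF receptor, and Etv5, named here after their values were seen, had -0.29 and -0.28 with unadjusted p-values of 0.0262 and 0.0494 in limma and were short of the fold limit of 0.8. That limit asks for a larger log2 change than the limit of 1.2 for higher genes does. The direction below 0 held for 12 or 13 of the 16 genes under each of the other scalings, while the number past the limits was 0 under 75th percentile scaling and the median was -0.10 under normexp. A lean below 0 was not particular to this list. Of the endoplasmic reticulum chaperones, with no member past the limits, 16 of 19 were below 0 (median -0.13). So were 11 of 13 neurotrophin genes (-0.12) and 11 of 15 stress MAP kinase genes (-0.11). Cytosolic ribosomal proteins went the other way, with 55 of 78 above 0.

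Of 19 immediate early factors tested, 15 were below 0, with a median of -0.19, and Csrnp1 and Fosl1 were past the limits, beside 0.624% of all genes past them and lower. Fosl1, the AP-1 subunit Fra-1, had 11.22, 11.11, 10.65 and 11.21 with Ang II and 11.15, 10.74, 10.11 and 10.56 with Ang II+PD123319, lower on every slide, with -0.41 ± 0.13 (SE). Egr1 and Jun, early factors of the same response, had -0.37 and -0.24 and did not keep one sign over the slides. Maff, a small MAF factor singled out for its value of -1.21, rested on slide 4, where it differed by -4.24, and was 0.30 higher on slide 1. Fosb, the Fos relative with the highest value of the list, had 0.44 with differences from -0.90 to 1.39.

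Of the 9 ErbB receptors and ligands tested, 8 were below 0, with a median of -0.20, and Hbegf alone was past the limits. The median of this list depended on the scaling, at -0.06 under the 75th percentile and -0.08 under normexp. Among 22 genes of the Ras and ERK cascade, 17 were below 0 and the past-limit genes went both ways. Rasa1, a Ras GTPase activator and another hub gene of the study, was lower by 0.40, 0.54, 0.37 and 0.14 on the 4 slides, with a fitted log2 fold change of -0.36 ± 0.16 (SE), whereas Rasal1, with the same biochemical activity, was higher. Of the 16 YAP and TEAD targets tested, 12 were below 0, with a median of -0.12. Ctgf was lower and Igfbp3, a binding protein for insulin-like growth factors, was higher, by 0.36 ± 0.15 (SE), and the other 14 were not past the limits. Beside the counts of these lists, 0.624% of all genes tested were past the limits and lower and 2.02% past them and higher.

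**Figure D5:**
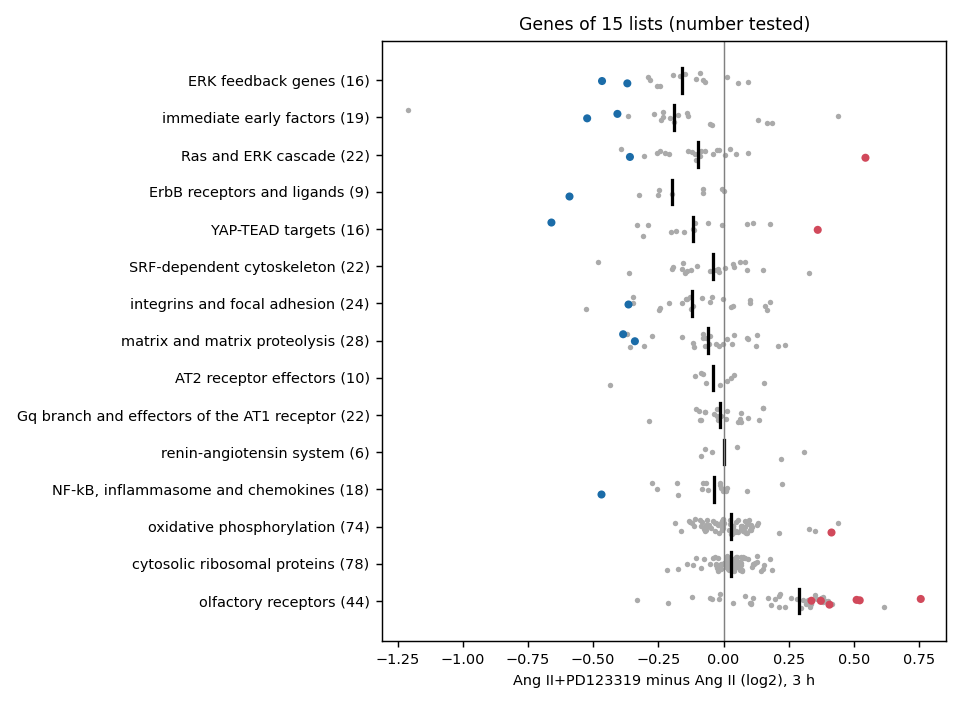
Log2 fold change of Ang II+PD123319 against Ang II at 3 h for the members of 15 gene lists, each point a gene, blue if lower and red if higher past the limits, with a black line at the list median and the number tested in brackets. The medians of the ERK feedback, immediate early and ErbB lists lie between -0.20 and -0.16. The ErbB median is -0.06 under 75th percentile scaling and -0.08 under normexp, and the ERK feedback median is -0.11 and -0.10. Lists that are not drawn can also lean below 0, such as the endoplasmic reticulum chaperones with a median of -0.13. The ribosomal protein median is 0.03, and that of the olfactory receptors is 0.29.

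Matrix genes gave 2 lower of 28 tested, among them the protease Mmp3 at -0.38 ± 0.14 (SE), which was 0.02 higher on slide 3 and ranged between slides from 2.90 to 8.47 in log2 signal under Ang II. Integrins and focal adhesion genes gave 1 lower of 24, Itga4 at -0.37 ± 0.15. The list of TGF-beta and BMP genes gave 1 lower of 26, the SMAD corepressor Skil at -0.41 ± 0.19, which was well above background on 6 of the 8 arrays. Neither Itga4 nor Skil was past the limits under 75th percentile, quantile or normexp scaling, and no matrix gene was under normexp. These counts of 1 or 2 genes stand beside 0.624% of all genes past the limits and lower. Of 13 calcineurin and NFAT genes, Ppp3r1 alone was past the limits, and of 18 genes of NF-kB, the inflammasome and chemokines, Cxcl1 alone. Cxcl1 had 8.99, 9.66, 9.09 and 10.34 with Ang II and 8.86, 9.26, 8.40 and 9.68 with Ang II+PD123319. Among 16 VEGF and hypoxia genes, the VEGF receptor gene Flt1 was lower by 0.38 on the log2 scale and the lymphatic receptor gene Flt4 was higher by 0.33, the latter in 7 arrays well above background. Ppp3r1 and Flt1 were short of the limits under 75th percentile scaling and normexp, and Flt4, Igfbp3 and Tuba3b under normexp. Vegfa itself had -0.09 ± 0.25 (SE).

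The genes nearest to the receptors showed no member past the limits. This was so for the 6 tested genes of the renin-angiotensin system, the 10 AT2 effectors, with a median of -0.04, and the 22 genes of the Gq branch and other effectors of AT1, with a median of -0.01. In the first list Mtus1, an AT2-interacting protein, had -0.08 ± 0.11 (SE), the lowest p among those below 0. Gnai3, a Gi subunit on the list of AT2 effectors, had -0.11 ± 0.10 and Ppp2r1a, a scaffold of protein phosphatase 2A, 0.16 ± 0.12. Gna12 and Arrb2, of the AT1 branch, had -0.29 ± 0.22 and 0.15 ± 0.11.

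No member was past the limits among 15 stress MAP kinase genes, 22 SRF-dependent cytoskeletal genes, 23 Wnt genes, 13 neurotrophin genes, 19 genes of the integrated stress response, 19 endoplasmic reticulum chaperones or 20 heat shock genes. The same was found for 34 replication genes, 32 mitotic genes, 14 p53 targets, 22 glycolytic genes, 23 genes of cholesterol and fatty acid synthesis, 12 clock genes, 22 NADPH oxidase and antioxidant genes, 4 aquaporins and 78 cytosolic ribosomal proteins. The ribosomal proteins, the brightest list, had a median of 0.03. Members with the lowest p on a side included Srf at -0.36 ± 0.24 and Acta2 at 0.33 ± 0.23, Fzd3 at -0.31 ± 0.16 and Lrp6 at 0.16 ± 0.13, Ngfr at 0.13 ± 0.18, and Map2k4 at -0.26 ± 0.14 and Map3k12 at 0.11 ± 0.11. Eif2ak4 had -0.35 ± 0.19 and Atf5 0.11 ± 0.14, Hyou1 -0.13 ± 0.11 and Sdf2l1 0.05 ± 0.12, and Hspa4 -0.28 ± 0.15 and Hspb1 0.52 ± 0.26. Mcm10 had -0.21 ± 0.15 and Gins4 0.11 ± 0.13, Ttk -0.20 ± 0.15 and Kif23 0.09 ± 0.10, and Plk3 -0.17 ± 0.16 and Cdkn1a 0.28 ± 0.20. Ldha, without a value on slide 1 in either group, had -0.39 ± 0.19, and Pfkfb3 had 0.22 ± 0.18. Sc4mol had -0.23 ± 0.17 and Dhcr7 0.08 ± 0.13, and Nr1d2 -0.33 ± 0.16 and Dbp 0.20 ± 0.11. Nfe2l2 had -0.23 ± 0.17 and Ncf1 0.28 ± 0.17, Aqp11 -0.22 ± 0.20 and Aqp8 0.33 ± 0.15, and Rpl23 -0.17 ± 0.13 and Rpl31 0.15 ± 0.09, all as log2 fold change ± SE.

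Oxidative phosphorylation gave 1 higher gene of 74, Cox4i2, an isoform of a cytochrome oxidase subunit, at 0.41 ± 0.18 (SE), and the tubulins 1 higher of 12, Tuba3b at 0.27 ± 0.12. Olfactory receptors detect odorants in nasal neurons. The array carries 1162 of them and only 44 passed the filter on signal. Of these 44, 37 were above 0, with a median of 0.29, and 6 were past the limits, all higher. Beside this count and those of the oxidative phosphorylation genes and tubulins stand 2.02% of all genes past the limits and higher. The filter keeps a gene that is clear in 1 group alone, so the count over these 44 is a description. The 6 were Olr7 at 0.76 ± 0.25, Olr132, Olr1415 at 0.51 ± 0.15, Olr1439 at 0.41 ± 0.19, Olr325 at 0.37 ± 0.14 and Olr3 at 0.34 ± 0.12 (SE). The median of their mean log2 signal was 4.58, near the floor of the arrays, and 26 of the 44 were well above background on all 8. With the background modelled by normexp their median was 0.10 and 1 was past the limits, and scaled by the 75th percentile it was 0.37 with 13. These receptors form a large family of similar sequences, and signal shared between members was not tested.

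The study listed 10 hub genes for this comparison on these samples, of which 7 were tested here and 2, Dusp6 and Rasa1, were past the limits, so the list is not independent evidence of its direction. Among the others, Myc had -0.21 ± 0.20, Ppp1r12a -0.19 ± 0.21, Cald1 -0.12 ± 0.19 and Dab2 0.01 ± 0.18 (log2 fold change ± SE). The PCR list holds 12 genes, of which 9 were tested, and Ctgf and Hbegf were past the limits. Over all genes tested, 2.64% were past the limits in either direction. Aqp2, a water channel, had 0.38 ± 0.18, of which slide 4 gave 1.08, Prkca -0.11 ± 0.11, Lamb1 -0.07 ± 0.12, Bcar1 -0.05 ± 0.11 and Agtrap, an AT1-associated protein, 0.05 ± 0.10.

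At 6 h the same treatments were measured on 16 other arrays. Each group held the same place on those slides as at 3 h, so place and treatment cannot be told apart there either. Of the 85 genes lower at 3 h, 69 were also below 0 at 6 h (81.2%), where 51% of all genes tested at both times were. Of the 275 higher genes, 206 were above 0 at 6 h (74.9%), beside 49% of all genes. Past the limits at both times were 31 genes, 8.61% of the 360 at 3 h and 9.28% of the 334 at 6 h that were tested at both, beside 2.45% of all such genes at 6 h. Of these, 4 were lower at both, where 0.514% of all genes were lower at 6 h, 24 were higher at both, where 1.94% were higher at 6 h, and 3 went opposite ways. The named lower genes were Ctgf, with -0.45 ± 0.13 at 6 h, Hbegf, with -0.43 ± 0.14, and Plcxd2, named by this count, with -0.52. Mdk was higher at both, by 0.36 ± 0.15 at 6 h. Tnfrsf12a had -0.23 ± 0.09, Fosl1 -0.15 ± 0.06 and Rasa1 -0.25 ± 0.11 at 6 h, each lower on all 4 slides there but short of the fold limit.

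Other genes lay near 0 at 6 h, such as Cxcl1 at -0.03 ± 0.12, Rasal1 at -0.10 ± 0.23 and Actc1 at 0.02 ± 0.09. The difference between the effects at 3 h and 6 h, tested in 1 limma model over the 32 arrays, passed an adjusted p under 0.05 at 0 of 13617 genes, with 234 (1.72%) at an unadjusted p under 0.05 and a lowest adjusted p of 0.9998. It was -0.21 ± 0.21 (SE) for Ctgf and -0.16 ± 0.21 for Hbegf. The 3 h and 6 h arrays were read under different settings of the scanner software, which cannot be told apart from time.

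Against Ang II+Los at 3 h, 1729 genes (12.7%) were past the limits in the direct contrast, 930 higher (6.82%) and 799 lower (5.86%) with PD123319, and none passed the adjustment (lowest adjusted p 0.3402). The Ang II+Los array of replicate 2 had the largest residual SD of the 16 arrays, 0.425 on the log2 scale. Without replicate 1 the number was 397, and without replicate 2 it was 285. Both compounds were used at 10 µM. Ctgf was lower with PD123319 than with Losartan by 0.73 on the log2 scale, with a 95% interval from -1.10 to -0.36, Dusp6 by 0.53 (-0.83 to -0.23) and Tnfrsf12a by 0.44 (-0.72 to -0.17). Hbegf did not differ past the limits, at -0.20 with an interval from -0.54 to 0.15.

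The 3 h comparisons of Ang II with Control and of Ang II+Los with Ang II share the Ang II arrays with the comparison above, and their values are set beside it without a test of likeness. Ctgf had -0.01 for Ang II against Control, 0.07 for Ang II+Los against Ang II and -0.66 for Ang II+PD123319 against Ang II. Hbegf had 0.06, -0.39 and -0.59, Tnfrsf12a 0.01, -0.05 and -0.49, and Dusp6 0.18, 0.16 and -0.37 in the same order. Rasal1 had -0.61, 0.26 and 0.54, and Mdk -0.41, 0.21 and 0.50.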

How the data were processed

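RNA of C6 cells was hybridised to Agilent 1-colour (Cy3) rat 4x44K arrays, and the scanner intensity values were deposited by the authors as Agilent Feature Extraction 9.5.3.1 output, background subtracted by that software and not normalised between arrays. The authors also deposited log2 values for each probe. All 262038 of these that could be compared equalled the log2 of the scanner's processed signal within 1e-06, so that table holds no further normalisation, and it leaves 42.1% of the 3 h values blank. Probe coordinates are rn4, per the file headers.

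Control and outlier spots were left out, spots at or below background took the software's signal error as a floor, and log2 signals were averaged over the spots of a probe. A probe with over 2 gaps was dropped. The 16 arrays of 3 h were normalised together by cyclic loess (span 0.7, 3 iterations). Probes were kept where at least 0.5 of their spots were well above background throughout 1 group or more, and those of a gene were averaged. Genes were tested with limma 3.58.1 in R 4.3.3, with the slide as a block and Benjamini-Hochberg adjustment over all genes. The study used t-tests at p under 0.05 without adjustment. That p limit was kept for counting, and a fold limit, above 1.2 or below 0.8, was set here. Figures and list counts used Python 3.11.15, pandas 2.3.3, numpy 2.4.6, scipy 1.17.1 and matplotlib 3.10.9. The fit was also run on simulated data with independent normal errors. These data held no trend over probe GC content and no treatment differences of a slide shared between genes, so the run does not cover them.

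Replicate numbers pair the arrays because the files place each number on a slide of its own; the deviations of same-numbered Ang II and Ang II+PD123319 arrays from their group means correlated at 0.82, 0.58, 0.92 and 0.7. The number of arrays, 4 a group, limits the precision, and an exact sign-flip test over 4 pairs could not go below 0.125. Named genes were the receptors, the 12 highest and 12 lowest past the limits with one sign on 4 slides, a clear signal on 8 arrays and a symbol, all members of the hub and PCR lists, every list member past the limits or, for lists without one, those of lowest p on each side. Some genes that this rule names are not reported here. Members and lists were chosen with earlier results of these data known. Alternatives covered the block, normalisation, filters, fold limits, left-out replicates and scan sessions. Removal of the trend over probe GC content and omission of the Ang II+Los arrays were added after the data were seen.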

Additional observations from a re-analysis of the deposited data

Results flagged for a closer look

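For the named genes, the 4 Ang II arrays and the 4 Ang II+PD123319 arrays at 3 h were searched for an array set apart from its neighbours, taken as a gap to the nearest array, as a share of the group's range, above Dixon's limit at the 95% level. Of 180 groups examined 9 passed. The 2 groups of a gene share their slides and are not independent, so this count cannot be judged against the 5% that chance gives. Myc, Hyou1 and Sdf2l1 were each flagged on the same slide in both groups. The values are listed below, and their cause was not tested. Myc, a growth factor-responsive transcription factor, was highest on replicate 3 with Ang II (log2 signal 10.55, next 9.15, gap 0.848) and with Ang II+PD123319 (10.29, next 8.91, gap 0.833). On replicate 1, Hyou1 was lowest at 11.16 with Ang II (next 13.49, gap 0.914) and 10.94 with Ang II+PD123319 (next 13.38, gap 0.897), and Sdf2l1 had 9.89 (next 12.86, gap 0.858) and 9.84 (next 12.90, gap 0.84). Atf5, a stress factor, was lowest on the same Ang II array, at 9.16 (next 10.64, gap 0.955). Gnai3 was lowest on Ang II+PD123319 replicate 3, at 10.97 (next 11.47, gap 0.943), and Cdkn1a on Ang II replicate 2, at 11.27 (next 12.02, gap 0.833). None of these genes was past the limits in the comparison.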

How the results depend on the processing

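No gene passed the adjustment under any alternative, the lowest adjusted p being 0.0626 with array weights, so the counts below are those past the unadjusted limits, beside 360 genes (275 higher, 85 lower) in the fit with the replicate block that pairs arrays by slide. Without that block there were 62 (52 and 10). The 8 arrays alone gave 660 (483 and 177), the fit without Ang II+Los arrays 610 (478 and 132), a paired t-test, the kind the series record names, 149 (80 and 69) and an unpaired t-test 67 (52 and 15), with 0 after adjustment. Array weights gave 468 (319 and 149), 75th percentile scaling 459 (430 and 29), quantile 383 (325 and 58), normexp 175 (159 and 16), the strict filter 295 (244 and 51), no filter 837 (573 and 264) and the deposited log2 values 295 (243 and 52). The first scan session gave 34 (14 and 20) and the second 580 (373 and 207), each from 2 slides. Removing the probe GC trend gave 260 (178 and 82), and doing so on the 8 arrays alone 523 (336 and 187). Symmetric fold limits, at 1.2 and its inverse, gave 387 (275 and 112). Leaving out 1 replicate gave 40 to 722 genes, 17 to 535 higher and 23 to 187 lower, with 40 without replicate 4, 251 without replicate 2 and 722 without replicate 1. For Ang II+PD123319 against Ang II+Los, 1729 genes became 461 without the replicate block and 285 to 2552 with 1 replicate left out. The difference between 3 h and 6 h stayed at 0 genes past the adjustment under the strict filter, without the replicate block and with each replicate left out. Of the 42 named genes past the limits, 41 kept this on the 8 arrays alone, 38 under quantile, 37 without the GC trend, 33 under 75th percentile scaling, 19 under normexp and 7 without the replicate block. Without replicates 1 to 4 in turn, 32, 20, 32 and 11 kept it. Tnfrsf12a kept it in 20 of 21 settings, Ctgf in 19, Hbegf in 17 and Dusp6 in 14. Over all named genes and settings, 300 values of genes past the limits no longer passed them, 39 values of other named genes came to pass them and 39 moved by more than 1 SE without passing. Of the 1530 remaining values, those of genes past the limits stayed past them in the same direction and the others stayed within 1 SE and short of them. Among genes past the limits the sign turned for Flt4 alone, to -0.13 without the filter on dim probes. The cause was not tested for any of these changes. Dim signal limits most of the genes past the limits, and receptor levels below background give no comparison.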
